A study of Mus musculus with 20 samples.

Results

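The 31 genes described here encode lysosomal hydrolases, lysosomal membrane proteins and the soluble partners of both, and are a list of named genes, not a set cut from measured values, although earlier results of these data were known when it was drawn up. They comprise 11 proteases, 9 glycan-degrading enzymes (glycosidases and a sulfatase), 3 proteins of lipid breakdown and 8 membrane proteins or cholesterol carriers. All 31 are among the 46078 genes of the table of counts, and all 31 passed the filter on low counts that left 14759 genes to test. Polyadenylated RNA was sequenced from the livers of male mice at least 9 weeks old on a mixed 129/C57BL/6 background. Cse-/- mice lack cystathionine γ-lyase, the enzyme of the last step in making cysteine, in every tissue, and their controls are Cse+/- in the study's list of mice but WT in the sample labels. Mice were held on a restricted ration of control diet, a defined amino acid diet, and then given the same diet with an amino acid left out, and livers were taken 2 days after the change. There were 2 Cse+/- livers from the control diet, 4 from a diet without cysteine (no-Cys) and 3 from a diet without tryptophan (no-Trp). Of the Cse-/- livers 4 came from the no-Cys diet, 3 from the no-Trp diet and 4 from the no-Trp diet with l-buthionine sulfoximine (BSO), which inhibits glutathione synthesis. No Cse-/- mouse on the control diet was analysed here, so the genotype alone and the lack of an amino acid in Cse-/- mice cannot be told apart in some comparisons.

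Lysosomes are acidic compartments in which proteins, glycans and lipids delivered by endocytosis or autophagy are broken down to units that transporters return to the cytosol. Most hydrolases reach them by mannose 6-phosphate tags, and a proton-pumping vacuolar ATPase keeps the lumen acidic. Cysteine released from protein is oxidized in the lumen to cystine, which leaves through cystinosin, the product of Ctns, while the carrier encoded by Mfsd12 brings cysteine in. Many lysosomal genes carry a palindromic E-box near their start, the core of the CLEAR element to which TFEB and its relatives bind.

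A pair of letter strings was therefore looked for in the RefSeq promoters of GRCm38.p6, each from 250 bases before to 50 bases after a transcription start. The motif TCACGTGA and the shorter CACGTG that lies within it read the same on both strands. Of the 31 genes, 27 had a promoter in the table, all but Asah1, Ctsb, Ctsh and Npc1. TCACGTGA was in a promoter of 5 of the 27 (Cln3, Ctsa, Ctsd, Gla and Mcoln1), and in 1.12% of the 27025 genes with a promoter. CACGTG was in 12 of the 27, and in 8.09% of all genes. Both are descriptions of the letters and not of binding. The promoters of the 3 genes with CACGTG that were higher in Cse-/- livers on the no-Cys diet, and of the 1 with CACGTG that was lower, are printed 5′ to 3′ on the strand of the gene, with each CACGTG in capitals. Those of Ctsl (chr13:64370471-64370770, minus strand), Gaa (chr11:119267713-119268012, plus strand), Ctsa (chr2:164833523-164833822, plus strand) and Lamp1 (chr8:13158911-13159210, plus strand) were these.

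Ctsl: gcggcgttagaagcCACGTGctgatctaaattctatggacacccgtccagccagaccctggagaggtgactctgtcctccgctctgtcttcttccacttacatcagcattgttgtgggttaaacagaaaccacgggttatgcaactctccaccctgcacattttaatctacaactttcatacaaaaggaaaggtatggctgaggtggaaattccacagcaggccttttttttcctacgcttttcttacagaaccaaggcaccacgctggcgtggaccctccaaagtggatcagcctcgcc

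Gaa: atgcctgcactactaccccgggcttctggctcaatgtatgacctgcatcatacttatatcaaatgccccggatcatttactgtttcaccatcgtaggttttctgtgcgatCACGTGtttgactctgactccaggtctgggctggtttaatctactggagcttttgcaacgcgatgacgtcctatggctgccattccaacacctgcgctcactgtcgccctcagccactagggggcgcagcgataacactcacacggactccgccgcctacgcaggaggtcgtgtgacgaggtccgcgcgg

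Ctsa: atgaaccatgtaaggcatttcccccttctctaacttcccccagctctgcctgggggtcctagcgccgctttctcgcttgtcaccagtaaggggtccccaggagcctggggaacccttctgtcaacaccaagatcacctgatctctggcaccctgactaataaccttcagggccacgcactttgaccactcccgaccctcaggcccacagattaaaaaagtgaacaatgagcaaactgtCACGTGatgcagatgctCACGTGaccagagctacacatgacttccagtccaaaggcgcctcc

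Lamp1: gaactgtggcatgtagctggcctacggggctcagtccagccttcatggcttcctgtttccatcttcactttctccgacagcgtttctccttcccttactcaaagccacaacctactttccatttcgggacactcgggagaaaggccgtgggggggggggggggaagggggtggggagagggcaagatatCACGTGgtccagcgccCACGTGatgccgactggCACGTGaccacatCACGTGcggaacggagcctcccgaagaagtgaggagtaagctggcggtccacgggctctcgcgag

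The motif of Ctsl began 236 bases before the start and that of Gaa 140 bases before it. In the Ctsa promoter both motifs were TCACGTGA, and their CACGTG began 12 bases before and 5 bases after this start, the downstream of a pair that the table lists. Lamp1 held 4 copies of CACGTG between 61 and 15 bases before its start, and was lower. Hexa, Ctsz, Tpp1 and Neu1, which were also higher, and Ctsc, Lipa, Ctso and Npc2, which were also lower, held neither string in their windows. Ctsh, lower as well, had no promoter to search. The other genes with CACGTG (Cln3, Ctsd, Ctsf, Gla, Glb1, Mcoln1, Naglu and Sgsh) were not called in that comparison.

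Counts on genes ranged from 11785740 to 57986121 per library, with a median of 15252745, and the lowest count of any of the 31 genes in any library was 37, for Sgsh. The unit of level is CPM, in which TMM-scaled library sizes are set equal. Cth, the gene that is deleted, was at 6.37 to 14.4 CPM in the Cse-/- libraries and at 88.4 to 332 CPM in the Cse+/- libraries, so the genotypes matched the labels. In each comparison a gene was called at an adjusted p under 0.05 in edgeR's quasi-likelihood test. In 25 pairs of livers of the same group, the chi-square of the counts was 9.6 to 64.2 per gene. This measure holds differences between mice as well as counting error. On the no-Cys diet 1 library of each genotype stood apart, and the libraries are named here as in the list of mice. Library av08 differed from the other Cse-/- livers by 43.3 to 48.9 per gene, against 9.6 to 16.3 among those others, and av01 from the other Cse+/- livers by 26.9 to 49.8, against 15.1 to 23.6. Of 7 hepatocyte markers, 4 (Alb, Apoa1, Ttr and Fabp1) were lower and Cps1 was higher in Cse-/- than in Cse+/- livers on the no-Cys diet, and their summed level was 41810 to 67610 CPM against 88480 to 109700. All 3 red cell genes, 2 of 5 cholangiocyte genes and 1 of 5 stellate cell genes (Lrat) were lower too, 1 of 5 sinusoidal endothelial genes (Lyve1, log2 1.15 ± 0.19) was higher, and no exocrine pancreas gene passed the filter. The summed level of 4 adipose genes was 30 CPM in av17 (Cse+/-, no-Trp) and 13.1 CPM in av14 (Cse-/-, no-Trp), mostly Cfd, against at most 0.92 CPM in any other library. The part of these marker changes in the results was not tested. In whole liver, fewer cells of a type and less RNA per cell cannot be told apart.

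Per kilobase of transcript, the 31 genes spanned a 385-fold range in Cse+/- livers on the control diet. Ctsl, the gene of the endopeptidase cathepsin L, was highest at 344.9 ± 22.1 CPM per kilobase (SD, n = 2), using its best-supported principal transcript, and a longer annotated transcript would place it lower. Lamp1, a heavily glycosylated protein of the lysosomal membrane, followed at 288 ± 8.03, and Psap, the precursor of the saposins that help glycolipid breakdown, at 233 ± 13.5. The ranges of the neighbours Psap, Ctsz, Ctsd and Ctsh, at means of 194.0 to 233, overlapped in turn, so their order was not resolved. Sgsh and Gla, a heparan sulfatase and the α-galactosidase of globotriaosylceramide, were lowest at 0.897 ± 0.0255 and 1.34 ± 0.249. Other genes, mainly Card14 on the opposite strand, overlap 21.6% of the exon length of Sgsh. Ctns was 27th of the 31 at 5.63 ± 0.475, and its range overlapped that of Glb1. In Cse-/- livers on the no-Cys diet Ctsl stood at 767.5 ± 103.9 CPM per kilobase (n = 4) with the next gene, Ctsz, at a mean of 294 (240.2 to 332), and the whole range was 632-fold.

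**Figure D1:**
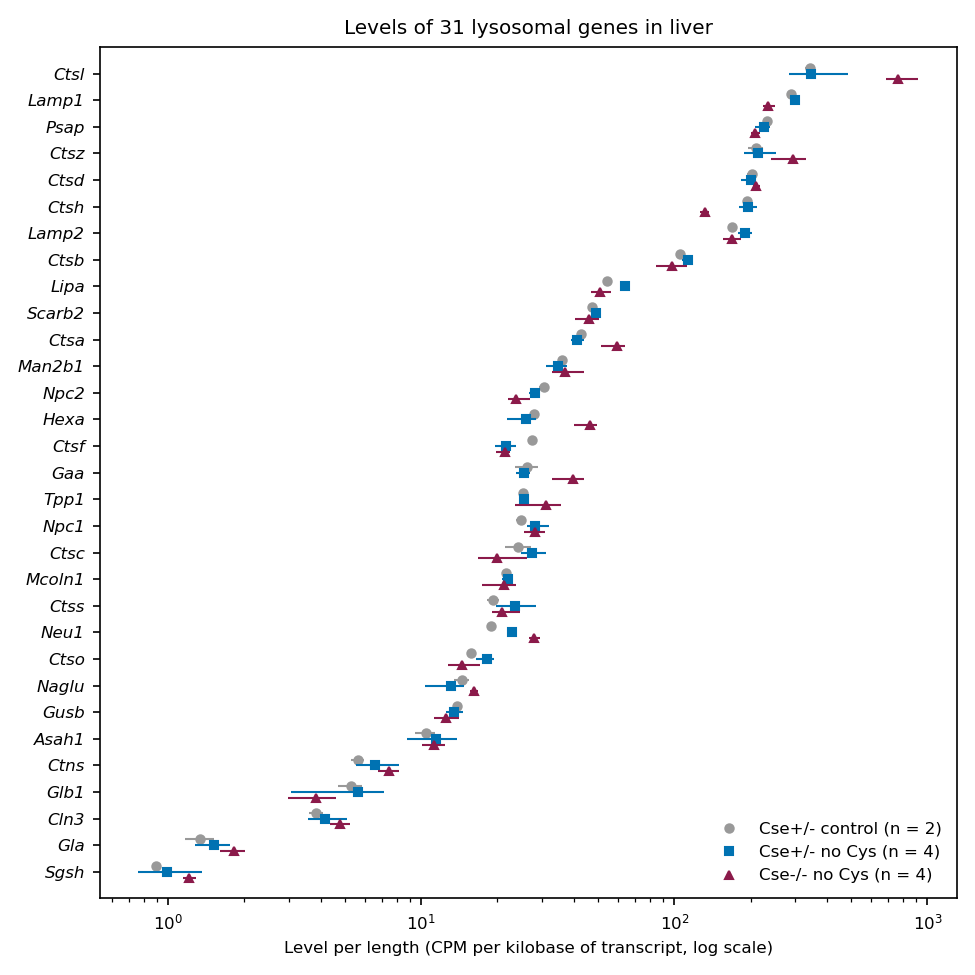
Level of each of the 31 genes in CPM per kilobase of transcript (log axis) in 3 of the groups, with points at the mean and lines from the lowest to the highest library. Ctsl moved from 344.9 in Cse+/- controls to 767.5 in Cse-/- livers on the no-Cys diet, and Sgsh and Gla were the lowest in all the groups drawn.

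On the no-Cys diet Cse-/- livers lack both dietary and self-made cysteine, and Cse+/- livers lack only the dietary part. With no Cse-/- liver from the control diet, the comparison of the genotypes cannot tell that lack from the genotype alone. The 31 genes did not move together. In Cse-/- livers 7 were higher (Ctsl, Hexa, Gaa, Ctsa, Ctsz, Neu1 and Tpp1), 6 were lower (Ctsh, Ctsc, Lamp1, Lipa, Ctso and Npc2) and 18 were not called. These are 22.6% higher and 19.4% lower, beside 11.6% and 12.2% of all genes tested, and the median log2 fold change of the 31 was -0.02 against -0.01 over all genes. The glycosidases were called in 1 direction, 3 higher and 0 lower of 9, with 5 at an unadjusted p under 0.05 (36.2% of all genes were under it), whereas the proteases split into 4 higher and 3 lower of 11. Among the membrane proteins and cholesterol carriers 0 were higher and 2 were lower of 8, and 3 were at an unadjusted p under 0.05, a share near that of all genes.

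**Figure D2:**
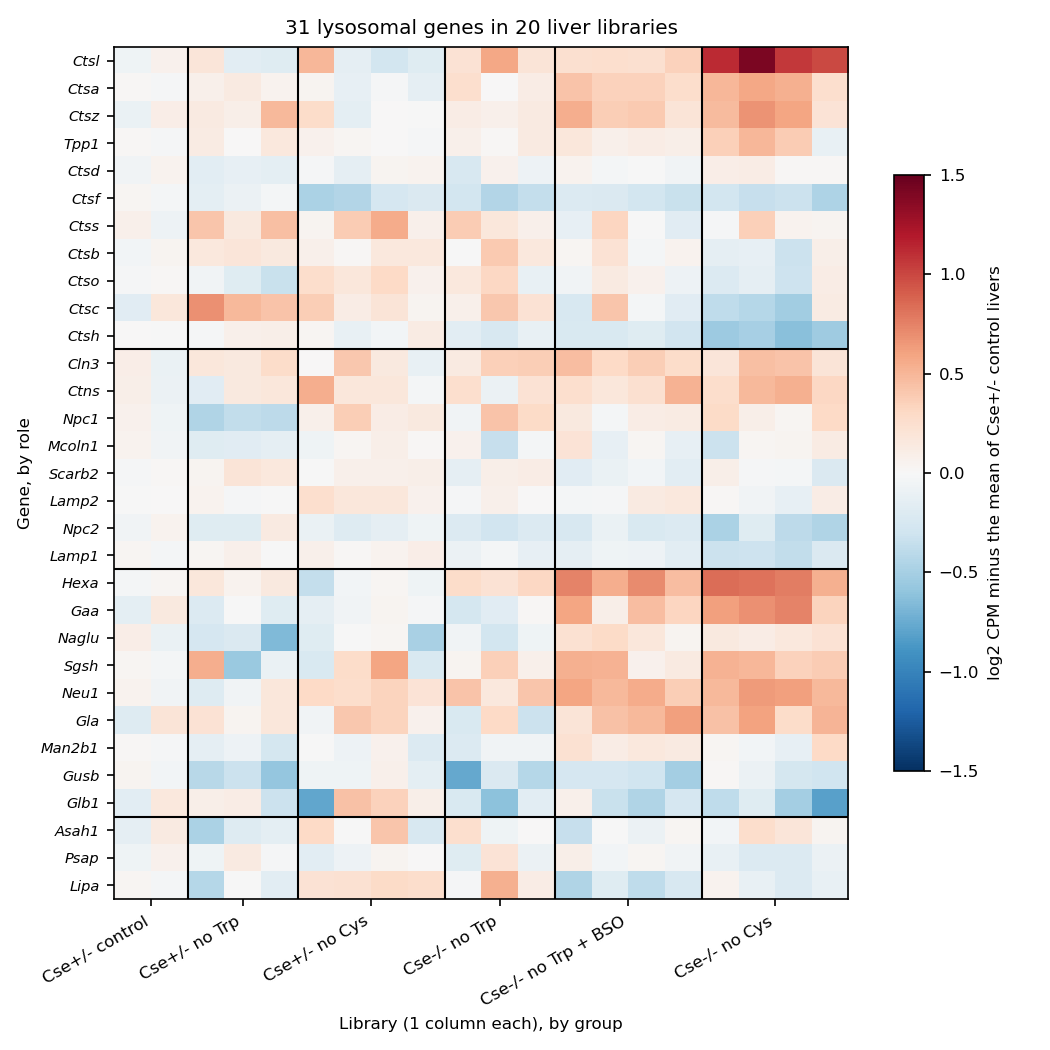
log2 CPM of each gene (rows, by role) in each of the 20 libraries (columns, by group) less its mean in Cse+/- livers on the control diet. The columns of Cse-/- livers on the no-Cys diet are red for Ctsl, Hexa and Gaa and blue for Ctsh and Lamp1, and the BSO columns are red for Hexa and Gaa.

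Ctsl rose most. Its levels were 1478, 1809, 1418 and 1346 CPM in the 4 Cse-/- livers and 959.9, 618, 560.5 and 597 CPM in the 4 Cse+/- livers. The groups did not overlap, and the highest control was av01. The difference was 2.21-fold (log2 fold change 1.15 ± 0.15 (SE), adjusted p = 3.24e-05), and over the leave-outs of single libraries it stayed between 1.04 and 1.35. Ctsa, a serine carboxypeptidase that also protects β-galactosidase and neuraminidase, was at 186 to 233 CPM (219.7, 233, 225 and 186) against 160, 144, 154 and 142 CPM. That difference, without overlap, was 1.44-fold (log2 0.53 ± 0.08, adjusted p = 0.000159). About 17.4% of the exon length of Ctsa overlaps genes on the opposite strand, mainly Pltp, and the libraries do not record strand.

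Ctsz, a cysteine carboxypeptidase, was at 417, 479, 453 and 346 CPM in Cse-/- livers and at 363, 273, 302 and 299 CPM in controls. The lowest Cse-/- liver, av08, lay under the highest control, av01, and the difference was 1.37-fold (log2 0.46 ± 0.12, adjusted p = 0.00839). Tpp1, a tripeptidyl peptidase, rose 1.22-fold (log2 0.28 ± 0.10, adjusted p = 0.0375), with overlapping groups.

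Ctsh, an aminopeptidase, fell most evenly among the proteases. It was at 215, 222, 204 and 217 CPM in Cse-/- livers and at 321, 290.4, 305 and 343 CPM in controls. No value of either group reached the other, and the level was 1.47-fold lower (log2 -0.55 ± 0.07, adjusted p = 3.04e-05). Ctsc, a dipeptidyl peptidase that activates serine proteases of immune cells, was at 46.2, 44.5, 41.9 and 65.5 CPM against 77.4, 64.7, 68.7 and 61.6 CPM. The Cse-/- value within the control range came from av08, and the difference was 1.38-fold lower (log2 -0.46 ± 0.15, adjusted p = 0.0309). Ctso, a cysteine protease of less known function, was at 47.3, 49.9, 44.1 and 59.0 CPM against 65.5, 61.7, 67.3 and 57.2 CPM. Here too av08 alone overlapped the controls (log2 -0.33 ± 0.10, adjusted p = 0.0257). Ctsc and Ctss are abundant in macrophages, and the summed level of 12 Kupffer cell and macrophage markers was 360 to 427 CPM in Cse-/- and 435 to 527 CPM in Cse+/- livers. Of these markers 3 (C1qa, C1qb and C1qc) were lower, 0 were higher and none was at 0 in every library of a group, and their part in the Ctsc result was not tested. Ctss itself was not called (log2 -0.17 ± 0.13). Nor were Ctsb, Ctsd and Ctsf, of which Ctsb was the lowest (log2 -0.22 ± 0.10) and Ctsd, the main aspartic protease, the highest (log2 0.07 ± 0.08).

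Hexa, the α-subunit of β-hexosaminidase A, had the lowest p of the 31 genes. Its levels were 99.1, 97.2, 94.8 and 80.3 CPM in Cse-/- livers and 43.4, 54.0, 56.5 and 53.1 CPM in controls, with a wide gap between the groups. It rose 1.79-fold (log2 0.84 ± 0.09, adjusted p = 4.43e-06). Tmem202, on the opposite strand, covers most of the 12.8% of Hexa exon length that lies in other genes. Gaa, the acid α-glucosidase that degrades glycogen, was at 145, 153, 159 and 119 CPM against 86.2, 91.7, 97.5 and 93.5 CPM. The groups did not overlap, and the rise was 1.56-fold (log2 0.64 ± 0.11, adjusted p = 0.000447). Neu1, the lysosomal sialidase, was at 65.6, 72.6, 71.7 and 65.7 CPM against 57.4, 56.1, 59.0 and 53.8 CPM. Each Cse-/- liver was above each control, by a narrow margin (log2 0.28 ± 0.09, adjusted p = 0.022). The other 6 glycan-degrading genes were not called. Naglu, a heparan sulfate glucosaminidase, was at log2 0.31 ± 0.11 (adjusted p = 0.0533) and Glb1, the β-galactosidase, at -0.56 ± 0.21 (adjusted p = 0.0577), these being the highest and the lowest of the 6.

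Lamp1 was at 515, 519, 499 and 555 CPM in Cse-/- livers and at 679.9, 648, 667 and 687 CPM in controls. It was the least variable of the 31 genes within groups, no value overlapped, and it was 1.28-fold lower (log2 -0.36 ± 0.07, adjusted p = 0.000887). Other genes, mainly Grtp1 on the opposite strand, overlap 9.31% of the exon length of Lamp1. Lamp2, the companion of Lamp1, was at log2 -0.18 ± 0.08 and was not called. Npc2, the soluble protein that hands cholesterol to NPC1, was at 72.4, 88.5, 76.7 and 73.6 CPM against 93.9, 87.8, 91.9 and 96.1 CPM. Only av06 reached the control range (log2 -0.25 ± 0.08, adjusted p = 0.0367). Npc1 did not follow, at log2 -0.00 ± 0.10. Ctns, the cystine exporter, was at 18.3, 21.5, 22.2 and 19.0 CPM in Cse-/- livers and at 22.3, 17.2, 17.3 and 15 CPM in controls. All controls but av01 were below every Cse-/- liver, and av01 was above them all, and the difference was not called (log2 0.18 ± 0.13, adjusted p = 0.321). Of the membrane proteins not called, Cln3 was the highest (log2 0.19 ± 0.11) and Lamp2 the lowest, with Scarb2 and Mcoln1 between.

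Lipa, the acid lipase that frees cholesterol and fatty acids from lipoprotein lipids, was at 166, 148, 139 and 148 CPM in Cse-/- livers and at 187, 187, 195 and 192 CPM in controls. The groups did not overlap, and the level was 1.26-fold lower (log2 -0.34 ± 0.11, adjusted p = 0.0346). Psap was at log2 -0.11 ± 0.09 and Asah1, the acid ceramidase, at -0.03 ± 0.13, and neither was called.

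**Figure D3:**
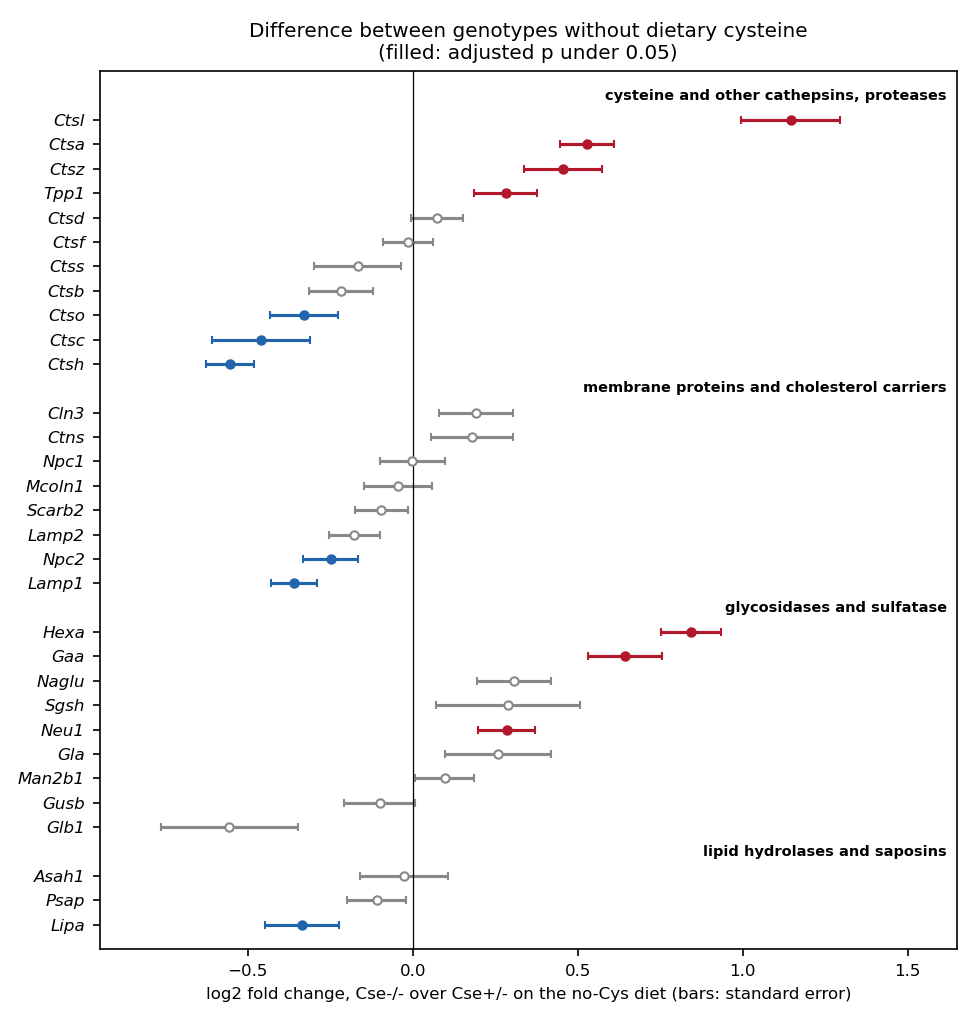
log2 fold change of each gene between Cse-/- and Cse+/- livers on the no-Cys diet (4 libraries each) with its standard error, by role. Filled points passed an adjusted p of 0.05, 7 to the right of 0 and 6 to the left, with Ctsl farthest at 1.15.

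Ctsl, Hexa, Gaa, Ctsa, Ctsz, Ctsh and Lamp1 kept their calls when any 1 of the 8 libraries was left out. The other 6 did not. Neu1 lost its call without av02, av04 or av06, Ctso without av01, av03, av05 or av07, and Ctsc without av01, av03, av05, av06 or av07. Npc2 was lost without any library but av02 and av06, Lipa without any but av05, and Tpp1 without any but av08. Without av08 the called genes numbered 12, Npc2 and Lipa being lost and Ctsb gained, without av01 they numbered 9, and without av07 they numbered 8. With no filter on low counts Ctso, Tpp1, Npc2, Neu1 and Lipa lost their calls, Tpp1 and Npc2 lost them in a fit of these groups alone, and Tpp1 also with upper-quartile factors or thinned libraries.

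Of 74 other lysosomal genes in 5 lists, the vacuolar ATPase and the sorting genes had the highest shares called, and the counts of each list stand beside 11.6% higher and 12.2% lower of all genes. Of 15 subunits of the vacuolar ATPase 7 were higher and 1 was lower, with Atp6v0c at log2 0.53 ± 0.14 (adjusted p = 0.00989) and Atp6v1g1 at -0.38 ± 0.11 (adjusted p = 0.0196). Of 9 genes that tag or carry hydrolases 5 were higher and 1 was lower. Vps35, a retromer subunit, was at 0.50 ± 0.09, and Sort1, a sorting receptor, at -1.04 ± 0.19. The median over the subunits was 0.17 and over the sorting genes 0.21, beside -0.01 for all genes. Of 21 other hydrolases and activators 5 were higher and 4 were lower. Galc, the galactosylceramidase, was at 0.51 ± 0.18, and Gm2a, the activator that presents ganglioside to β-hexosaminidase A, at -0.98 ± 0.11 (adjusted p = 8.95e-06), so the activator fell where Hexa rose. Of 20 other membrane proteins 3 were higher and 2 were lower, with Mfsd12 at 0.96 ± 0.15 (10.2 against 5.21 CPM, adjusted p = 0.000129) and Slc17a5, the sialic acid exporter, at -0.51 ± 0.11, and these shares were near those of all genes. None of 9 transcription and control genes was called, with 1 at an unadjusted p under 0.05 (36.2% of all genes), and Tfeb itself was at -0.27 ± 0.14 (adjusted p = 0.179).

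Cse-/- livers on the no-Cys and the no-Trp diets differ in the amino acid that is missing. This comparison shares its no-Cys livers with the previous one. Of the 31 genes 4 were higher without cysteine and 2 were lower, which is 12.9% and 6.45%, beside 5.05% and 5.35% of all genes. Of the markers of cell types, 3 of 7 for hepatocytes, 1 of 5 for cholangiocytes and 1 of 3 for red cells were lower without cysteine. The 3 adipose genes tested each had a negative log2 fold change with an unadjusted p under 0.05, and 0 were called. Their sum was 13.1 CPM in the no-Trp library av14. The part of all these markers in the results was not tested. Ctsl was at 787, 1018 and 775 CPM in the 3 no-Trp livers, all under the 4 no-Cys livers (log2 0.81 ± 0.16, adjusted p = 0.00454). Gaa was at 79.1, 84.4 and 95.8 CPM (log2 0.74 ± 0.12, adjusted p = 0.00101), Hexa at 67.3, 64.4 and 68.8 CPM (0.47 ± 0.10, adjusted p = 0.00549) and Ctsa at 185, 157 and 168 CPM (0.35 ± 0.09, adjusted p = 0.0186), none of them overlapping. Ctsh, at 281, 265 and 289.6 CPM, was again lower without cysteine and did not overlap (-0.38 ± 0.08, adjusted p = 0.00522). Ctsc, at 63.1, 79.2 and 69.5 CPM, was lower too but overlapped (-0.51 ± 0.16, adjusted p = 0.0454), beside Kupffer marker sums of 403 to 522 CPM in these no-Trp livers. Ctns was at 18.3, 14.4 and 17.8 CPM, each just or well under the lowest no-Cys liver, and was not called (0.26 ± 0.13, adjusted p = 0.213). The 25 genes not called ran from Lipa at -0.32 ± 0.12 to Gla at 0.53 ± 0.17 (adjusted p = 0.0537). Leaving out any 1 library kept the calls of Ctsl, Gaa, Hexa and Ctsh. Ctsa lost its call without av06, av15 or av16 and Ctsc without any library but av08. Without av08 the calls numbered 11 in place of 6, and a fit of these groups alone called only Ctsl, Gaa and Hexa. With no filter on low counts Ctsa was not called. DESeq2 called 10, adding Ctsb, Ctsz, Lamp1 and Gla, but the percentages of all genes above are those of edgeR. Of the other lysosomal lists, Atp6v0a1 (0.51 ± 0.11) and Atp6v1h were higher among 15 vacuolar ATPase subunits, and Mfsd12 (0.63 ± 0.15), Tmem175 and Atp13a2 among 20 membrane proteins. Vps35 (0.41 ± 0.10) was higher among 9 sorting genes, while Manba (-0.74 ± 0.13) and Gm2a were lower among 21 hydrolases and activators.

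BSO given with the no-Trp diet adds a block of glutathione synthesis to the lack of an essential amino acid. Against Cse-/- livers on the no-Trp diet without it, 0 of the 31 genes were higher and 1, Lipa, was lower (3.23%), beside 0.488% higher and 0.305% lower of all genes. Lipa was at 117, 141, 123 and 136 CPM with BSO and at 158, 232 and 172 CPM without it. The groups did not overlap, and the level was 1.45-fold lower (log2 -0.54 ± 0.12, adjusted p = 0.0363). The call was lost without av09, av11, av12 or av15, av15 being the highest liver without BSO, and without av15 the log2 fold change was the smallest at -0.37. It was also lost in a fit of these groups alone, and without av10 Gaa was called as well. All 9 glycan-degrading genes had positive log2 fold changes, with a median of 0.26, beside 49.2% positive and a median of -0.0048 over all genes. Of the 9, 5 had an unadjusted p under 0.05, beside 13.0% of all genes, but edgeR called none of them, whereas DESeq2 called Gaa and Hexa. In edgeR Gaa was called under a mean CPM of at least 1, without a low-count filter and with upper-quartile factors. The 3 adipose genes tested each had a negative log2 fold change with an unadjusted p under 0.05, and 0 were called. Their sum was 13.1 CPM in av14 and at most 0.29 CPM in the other 6 libraries, and their part was not tested. Without av14 Lipa kept its call (-0.65, adjusted p = 0.0212). Gaa was the nearest, at 143, 101, 131 and 118 CPM with BSO, each above the livers without it (0.51 ± 0.12, adjusted p = 0.0517). Hexa was at 92.8, 81.3, 90.3 and 76.4 CPM, also without overlap (0.35 ± 0.10, adjusted p = 0.0983). Ctsl differed little, at 802 to 860.3 CPM with BSO (-0.07 ± 0.16, adjusted p = 0.903), and Ctns was at 17.2 to 21.9 CPM (0.17 ± 0.13, adjusted p = 0.649). Of the genes not called Ctsc was the lowest, at -0.22 ± 0.16. Among the other lysosomal lists Manba, a β-mannosidase, was called (-0.69 ± 0.13).

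Set against the no-Trp diet with BSO, the no-Cys diet in Cse-/- mice left 1 gene higher and 1 lower (3.23% each), beside 1.33% and 1.42% of all genes. Markers lower without cysteine were 2 of 7 for hepatocytes and 2 of 5 for cholangiocytes, and their part here was not tested either. Ctsl was 1.85-fold higher without cysteine, with every no-Cys liver above every BSO liver (log2 0.89 ± 0.15, adjusted p = 0.00551), and it was called whichever library was left out. Ctsh was at 267, 268, 276 and 257 CPM with BSO, above each no-Cys liver (-0.32 ± 0.07, adjusted p = 0.0251), and its call was lost without any library but av08 and with no filter on low counts. Hexa and Gaa, both called against the no-Trp diet alone, were not called here, and the no-Cys and BSO ranges of each overlapped. Those not called ran from Ctsc at -0.29 ± 0.15 to Lipa at 0.22 ± 0.11, and Ctns was at 0.10 ± 0.12 (adjusted p = 0.692). Gm2a (-0.48 ± 0.11) and Vps35 (0.38 ± 0.09) were called among the other lists.

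**Figure D4:**
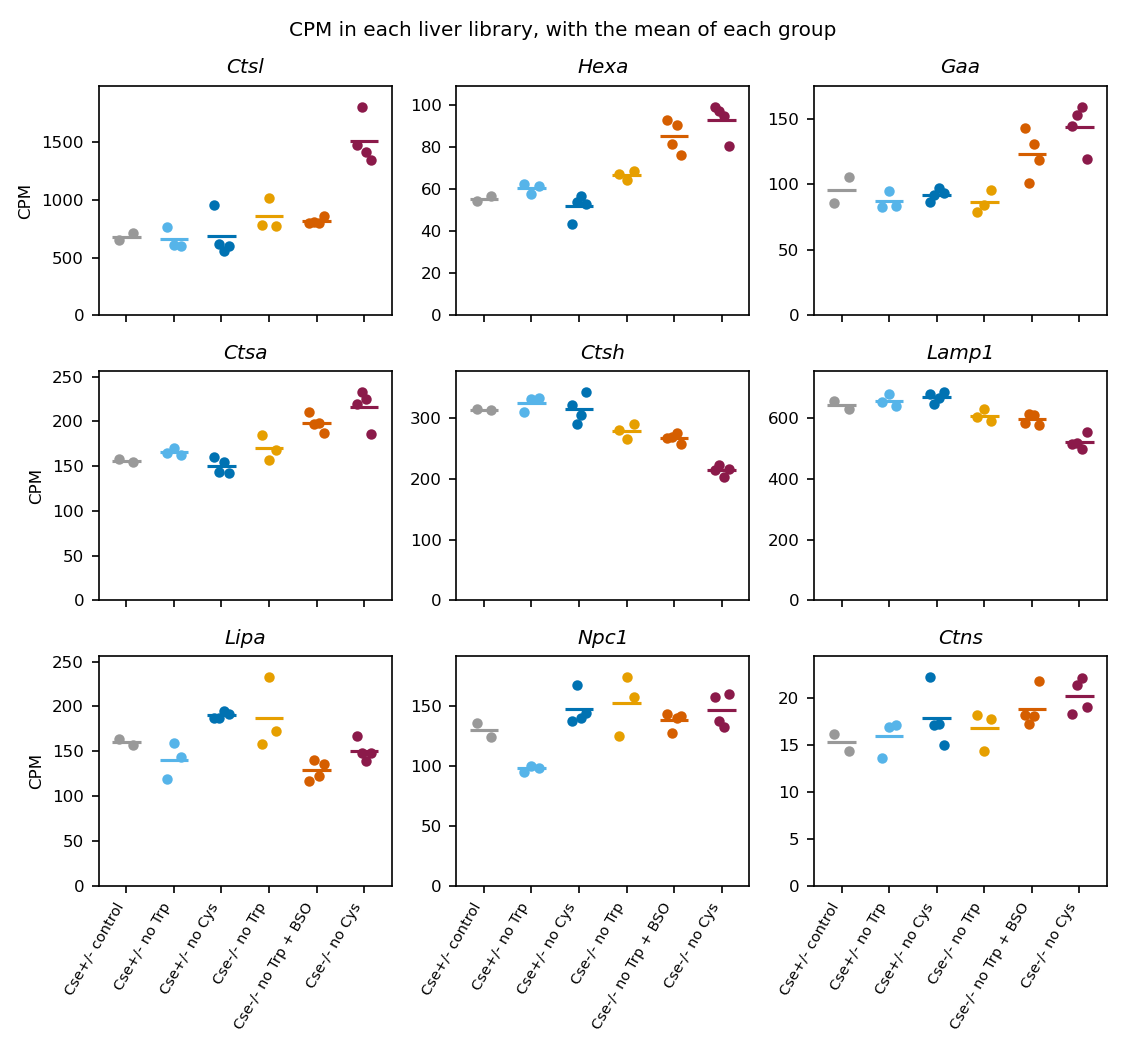
CPM of 9 genes in each of the 20 libraries (points) with the mean of each group (lines), on axes that start at 0. Ctsl is high in the Cse-/- no-Cys livers alone, Hexa and Gaa overlap between the no-Cys and BSO livers, Npc1 is lowest in Cse+/- no-Trp livers and Ctns lies between 13.7 and 22.3 CPM.

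On the no-Trp diet, which supplies cysteine, edgeR called 1 of the 31 genes between genotypes and DESeq2 called 3 (Npc1, Neu1 and Lipa). In edgeR Npc1, which exports cholesterol from lysosomes, was higher (3.23%), and 0 were lower, beside 1.4% higher and 1.24% lower of all genes. It was at 125, 174 and 158 CPM in Cse-/- livers and at 95.0, 100.4 and 98.6 CPM in Cse+/- livers, so that the groups did not overlap. The difference was 1.55-fold (log2 0.64 ± 0.11, adjusted p = 0.00649) and was called whichever library was left out, but not in a fit of these groups alone. Lipa was called as well without av14, and Neu1 without av20. Without av14 or av17, the libraries with adipose transcripts, the log2 fold change of Npc1 was 0.75 or 0.61, and it was called in both cases. Cse+/- livers on the control diet were at 136 and 124 CPM, above the Cse+/- no-Trp livers and beside the Cse-/- ones. About 5.31% of the exon length of Npc1 overlaps other genes, mainly Rmc1 on the opposite strand. Lipa (0.41 ± 0.13, adjusted p = 0.0871) was the highest and Ctsc (-0.30 ± 0.17, adjusted p = 0.351) the lowest of those not called. Ctsl was at 768, 606 and 601 CPM in Cse+/- livers, all under the Cse-/- ones, and was not called (0.39 ± 0.17, adjusted p = 0.235). Ctns was at 13.7, 17.0 and 17.2 CPM in Cse+/- livers (0.07 ± 0.14, adjusted p = 0.824). Acp2 (0.47 ± 0.11), an acid phosphatase, and Igf2r (0.40 ± 0.11), a mannose 6-phosphate receptor, were higher among the other lists.

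The difference between genotypes was then compared between the diets in the same fit, as an interaction. It was more positive on the no-Cys diet for 3 of the 31 genes and more negative for 3 (9.68% each), beside 1.67% and 2.69% of all genes. Hexa had the lowest p, with a log2 difference of 0.84 between genotypes without cysteine and 0.15 without tryptophan (interaction 0.70 ± 0.14, adjusted p = 0.00751), and kept its call in all 14 leave-outs of single libraries. Gaa differed by 0.64 and -0.01 (interaction 0.65 ± 0.17, adjusted p = 0.0346) and Ctsa by 0.53 and 0.03 (0.49 ± 0.12, adjusted p = 0.0292). For Lipa the difference was -0.34 without cysteine and 0.41 without tryptophan (-0.75 ± 0.17, adjusted p = 0.0164). Ctso went the same way, with -0.33 and 0.31 (-0.64 ± 0.16, adjusted p = 0.0245). Npc1 differed by -0.00 and 0.64 (-0.64 ± 0.15, adjusted p = 0.021). Ctsl, in spite of the largest estimate at 0.76 ± 0.23, was not called (adjusted p = 0.0621), nor was Ctns (0.10 ± 0.19, adjusted p = 0.818), and Asah1 was the lowest of those not called (-0.36 ± 0.20). Lipa lost its call without av17, Npc1 without av02, av07, av15 or av17, and Ctso without av05, av07, av14, av15 or av20. Gaa lost it without av02, av05, av06, av07, av14, av15 or av19, and Ctsa without av02, av06, av07, av15, av16, av17 or av19. The number called was 2 without av07, 3 without av02, av15 or av17, 8 without av01 and 9 without av08. A fit of the 4 groups alone called Gaa, Hexa and Lipa, and with no filter on low counts Ctsl was called in place of Ctsa. DESeq2 called 10, the 6 of edgeR with Ctsh, Ctsl, Ctsz and Lamp1, but the percentages of all genes above are those of edgeR. Of the libraries with adipose transcripts, leaving out av14 left 4 genes called (Ctsa, Npc1, Hexa and Lipa) and leaving out av17 left 3 (Ctso, Gaa and Hexa), with Lipa at -0.64 (adjusted p = 0.0502) and Npc1 at -0.61 (adjusted p = 0.0524) without av17. Among cell type markers the interaction was lower for 2 of 7 hepatocyte genes and 1 of 3 red cell genes and higher for Lyve1. The part of these markers was not tested. In the other lists Mfsd12 (0.78 ± 0.22) and Gnptg (0.53 ± 0.13), a subunit of the enzyme that makes the mannose 6-phosphate tag, were more positive and Gm2a (-0.63 ± 0.17) more negative.

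**Figure D5:**
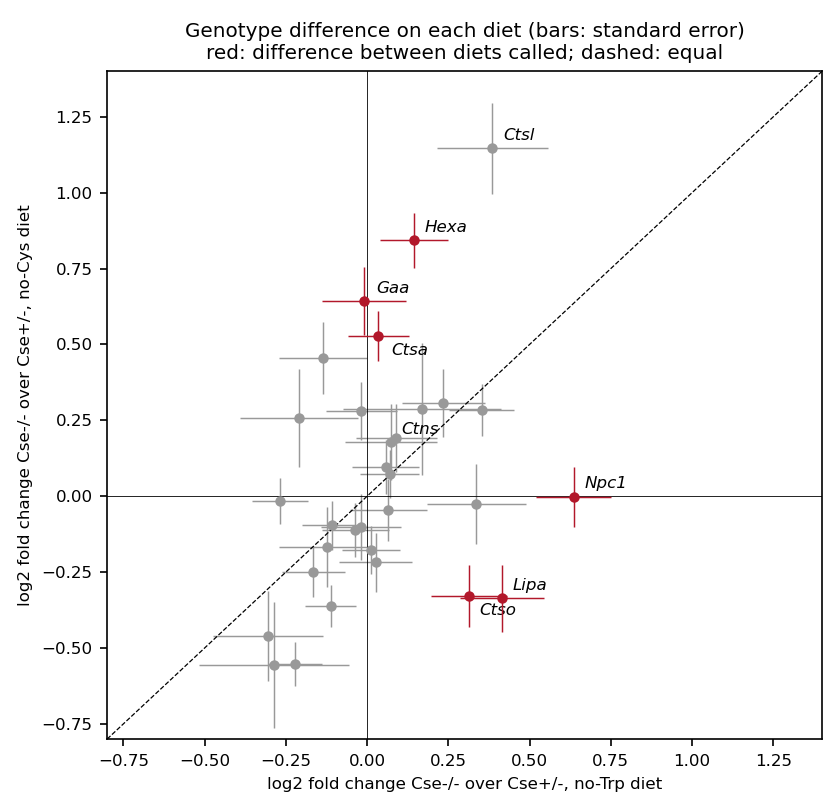
log2 fold change between Cse-/- and Cse+/- livers on the no-Trp diet (x axis) and on the no-Cys diet (y axis) for each of the 31 genes, with standard errors. The 6 red genes were called for a difference between diets. Hexa, Gaa and Ctsa lie above the dashed line of equal values and Npc1, Lipa and Ctso below it.

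In Cse+/- mice, which can make cysteine, the no-Cys and no-Trp diets were each compared with the control diet, not with each other. In neither did the main edgeR fit call any of the 31 genes. Both comparisons use the same control-diet livers. Between the no-Cys and the control diet edgeR called 0, beside 0.989% higher and 1.19% lower of all genes. At an unadjusted p under 0.05 were 2 of the 31, a smaller share than the 16.6% of all genes, and DESeq2 called 1, Ctsf. Ctsf, a cysteine protease, was at 38.8, 40.1, 45.7 and 46.7 CPM without cysteine and at 55.3 and 53.1 CPM on the control diet, without overlap (log2 -0.34 ± 0.09, adjusted p = 0.0557 in edgeR), and was called in edgeR without av04. Ctss was the highest (0.28 ± 0.16), beside Kupffer marker sums of 435 to 527 CPM without cysteine against 359.6 and 401 CPM. All 12 of those markers had positive log2 fold changes, 6 at an unadjusted p under 0.05 and 0 called, while 1 of 5 cholangiocyte markers (Krt7) was lower, and their part was not tested. Ctns was at 14.4 and 16.2 CPM on the control diet (0.22 ± 0.16, adjusted p = 0.501). Between the no-Trp and the control diet both tools called 0, beside 0.00678% higher and 0.0407% lower of all genes in edgeR, and 4 of the 31 had an unadjusted p under 0.05, beside 9.29% of all genes. The 31 genes ran from Gusb, the β-glucuronidase, at -0.44 ± 0.14 (adjusted p = 0.315) to Ctsc at 0.53 ± 0.19 (adjusted p = 0.388), beside Kupffer marker sums of 466 to 563 CPM against 359.6 and 401 CPM. Ctns was at 0.06 ± 0.16 (adjusted p = 0.944). The control diet had 2 livers, which limits these tests, and no gene of the other lysosomal lists was called in either.

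Across the 6 groups Ctsl had the widest range of means, 2.3-fold from 658 CPM in Cse+/- no-Trp to 1513 CPM in Cse-/- no-Cys livers. Hexa (1.79-fold), Ctsc (1.76-fold) and Gaa (1.67-fold) followed. At the other end were Psap, Lamp2 and Mcoln1, each at 1.13-fold. Man2b1, an α-mannosidase, ranged 1.24-fold and Scarb2, the carrier of glucocerebrosidase, 1.19-fold. Within groups the SD of log2 CPM ran from 0.0482 for Lamp1 to 0.33 for Glb1. The lowest count of Glb1 was 81, and 5.49% of its exon length overlaps Tmppe on the same strand. Group means of Ctns lay in the order Cse+/- control (15.3 ± 1.29 CPM), Cse+/- no-Trp (15.9 ± 1.99), Cse-/- no-Trp (16.8 ± 2.11), Cse+/- no-Cys (17.9 ± 3.07), Cse-/- no-Trp with BSO (18.9 ± 2.08) and Cse-/- no-Cys (20.3 ± 1.89, SD). Each neighbouring pair in that order overlapped.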

How the data were processed

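The authors deposited counts of reads on genes for 21 libraries, made per the labels and methods with HISAT2 2.1.0 on GRCm38 and HTSeq 0.11.0, from a kit that does not record strand. No source used here names the annotation release. Columns were matched to groups, not to single samples, by the study's list of mice, and 1 column was not used because the list gives it no condition.

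Counts were scaled by TMM and filtered with filterByExpr (minimum count 10, minimum total 15) in edgeR 4.0.16 (R 4.3.3). The quasi-likelihood fit took all 20 libraries, each from 1 mouse, with 6 group means, and two-sided p-values were adjusted over 14759 genes by the Benjamini-Hochberg method. Each standard error (SE) was the size of the log2 fold change divided by √F. Alternatives were other scaling, filters, thresholds, thinned libraries, the compared groups alone, DESeq2 1.42.0 and leaving out each library. Positions and lengths came from GENCODE on GRCm38, and symbols and promoters from it and RefSeq.

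The 31 genes and the other lists were chosen with earlier results of these data known. Genes named are all those called, Ctns in each comparison, the extremes of those not called, per other list the called gene with the largest change each way, and Mfsd12 and Tfeb. A few further genes were named after their values were seen. Values per library are given for the 12 genes of lowest p in the no-Cys comparison and for others the text singles out.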

Additional observations from a re-analysis of the deposited data

Results flagged for a closer look

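In 5 of 93 groups of 4 libraries, 1 library lay apart from the other 3 on the log2 scale. Chance alone gives about 1 in 20 such groups. With BSO, Ctsl was at 860.3 CPM in av12 against 802.3 to 806.7 in the others, Gusb at 26.2 CPM in av12 against 30.4 to 31.4, and Npc1 at 127 CPM in av10 against 140.2 to 143. In Cse-/- no-Cys livers Ctss was at 33.3 CPM in av06 against 25.8 to 26.9, and in Cse+/- no-Cys livers Scarb2 was at 220.5 CPM in av01 against 233 to 235.

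The difference between genotypes differed between the no-Cys and no-Trp diets for 6 genes by the interaction term of edgeR's test across all genes. On the log2 scale it was more positive without cysteine by 0.70 for Hexa, 0.65 for Gaa and 0.49 for Ctsa. It was more negative, with interactions of -0.75 for Lipa, -0.64 for Ctso and -0.64 for Npc1. No cause was tested.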

How the results depend on the processing

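No paired analysis was possible because the columns carry no replicate numbers of the labels. Of 29 calls of single genes, computed under 491 alternatives in all, 380 alternatives kept call and direction, 111 lost the call with the same direction and 0 reversed. Ctns was called in 0 of its 125 alternatives. It reversed 3 times, to -0.0016 without av14 and -0.021 without av17 between genotypes on the no-Trp diet, and to -0.0139 without av22 between the no-Trp and control diets in Cse+/- mice. Without single libraries these 2 values ran up to 0.1643 and 0.164.

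At an adjusted p under 0.01 the genes called were 7 between genotypes on the no-Cys diet in place of 13, 4 between no-Cys and no-Trp in Cse-/- mice in place of 6, 0 for BSO in place of 1, 1 between no-Cys and BSO in place of 2 and 1 for the interaction in place of 6. Upper-quartile factors, no filter and a mean CPM of at least 1 each gave 2 for BSO, and no filter gave 1 between no-Cys and BSO, 9 between genotypes on the no-Cys diet (5 calls lost, Glb1 gained) and 5 between no-Cys and no-Trp. Fitted to the groups compared alone, the counts were 11 between genotypes on the no-Cys diet, 3 in place of 6 between no-Cys and no-Trp in Cse-/- mice, 0 for BSO, 0 between genotypes on the no-Trp diet and 3 for the interaction. DESeq2 gave 10 between no-Cys and no-Trp, 3 for BSO, 3 between genotypes on the no-Trp diet, 1 between no-Cys and control in Cse+/- mice and 10 for the interaction. The cause of these shifts was not tested, other than the fewer libraries or stricter threshold that some use by construction. The percentages of all genes given in the results are those of the main edgeR fit. No such percentage stands beside these counts or those without single libraries, so none of them is read as particular to the lysosomal genes.

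Leaving out single libraries gave 8 to 12 between genotypes on the no-Cys diet (8 without av07), 4 to 11 between no-Cys and no-Trp in Cse-/- mice (11 without av08), 0 to 2 for BSO, 1 to 3 between no-Cys and BSO, 1 to 2 between genotypes on the no-Trp diet, 0 to 1 between no-Cys and control in Cse+/- mice (1 without av04) and 2 to 9 for the interaction. Where this left 1 control liver, its spread was taken as that of the other groups. The lowest counts in a library were those of Sgsh (37), Gla (45) and Glb1 (81).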

Other observations

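The summed level of the 31 genes was 6229 to 6873 CPM in Cse-/- no-Cys livers and 5581 to 6389 CPM over all other groups, with 5655 to 6177 in Cse+/- no-Cys livers. Of the 31 genes, 11 had their highest and 8 their lowest group mean in Cse-/- no-Cys livers, while Cse+/- no-Trp livers had 5 highest and 9 lowest. The same count was not made over all genes, so these numbers do not show a trait of the 31 genes. The sums follow the most abundant genes and were not tested. Ctsl alone made up a mean of 23.3% of the sum in Cse-/- no-Cys livers and 11.6% in Cse+/- no-Cys livers. Between these groups 14 of the 31 genes had a positive log2 fold change, so the higher sum is not a rise of the genes in general.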
